A study of Rattus norvegicus with 36 samples.

Results

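The genes described here are 10 genes of the defence against peroxide and other oxidants in the rat thyroid, namely Gpx1, Gpx3, Gpx4, Cat, Sod1, Sod2, Txnrd1, Nqo1, Hmox1 and Mt1. They were taken as a given list of symbols, and every probe that is not a control and whose transcript accession belongs to one of them was used. This gave 12 probes of the 30367 on the array, for 10 of the 15154 genes that could be named. Gpx4 and Txnrd1 had 2 probes each, and the brighter probe of each is the one meant where no other is named. All 12 probes lay well above background, by the call of the scanner's software, on all 36 arrays.

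The series holds 1-colour Agilent arrays of whole thyroid RNA from 36 adult male Sprague Dawley rats, 1 array per rat, taken 24 h after an intravenous injection. Rats received 131I, a beta- and gamma-emitting iodine isotope that the thyroid concentrates, at activities of 9, 88, 170, 260 and 340 kBq, of 760 and 1300 kBq, and of 4700 kBq, or were mock-treated without 131I (0 kBq), with 4 rats in each of the 9 groups. Each gland was an individual animal's, so the replicates are separate animals. According to the study's methods the groups were injected in order of activity with the controls last, so activity and order cannot be told apart. Cages held 4 rats each, and the rats of a group may have shared a cage. Levels are given as log2 of the background-subtracted intensity minus the array's 75th percentile, so a level of 0 is the signal that 75% of the probes of that array do not exceed. Levels of different probes are not comparable, and only differences of the same probe are read.

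A thyroid follicle makes hydrogen peroxide at its apical surface, because thyroid peroxidase needs it to bind iodine to thyroglobulin, and the same cell must remove what leaks back. Superoxide dismutases (Sod1 in the cytosol, Sod2 in mitochondria) turn superoxide into hydrogen peroxide. Catalase (Cat, in peroxisomes) and the selenium-containing glutathione peroxidases (Gpx1 in the cytosol and mitochondria, Gpx3 secreted, Gpx4 acting on lipid hydroperoxides in membranes) reduce peroxides further. Thioredoxin reductase 1 (Txnrd1), another selenoprotein, keeps thioredoxin reduced. The quinone reductase Nqo1 and haem oxygenase 1 (Hmox1) are textbook targets of the oxidant-sensing transcription factor Nrf2, and metallothionein 1 (Mt1) is a small cysteine-rich protein that binds zinc and copper and scavenges radicals.

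Metallothionein genes such as Mt1 and Mt2A are switched on through metal response elements, short promoter motifs bound by the zinc sensor MTF1. The promoters of Mt1 and of its neighbours Mt2A and Mt3 are shown because all 3 genes were higher where the follicular signal was high. The 250 bases before the start of transcription were taken from RefSeq, build GRCr8, and searched on both strands for the letters TGCGCNC or TGCACNC, which are printed in capitals. All 3 genes lie on the minus strand of chromosome 19, and the sequences read 5′ to 3′ along the gene, Mt1 from chr19:10832976-10833225, Mt2A from chr19:10838709-10838958 and Mt3 from chr19:10856081-10856330.
Mt1: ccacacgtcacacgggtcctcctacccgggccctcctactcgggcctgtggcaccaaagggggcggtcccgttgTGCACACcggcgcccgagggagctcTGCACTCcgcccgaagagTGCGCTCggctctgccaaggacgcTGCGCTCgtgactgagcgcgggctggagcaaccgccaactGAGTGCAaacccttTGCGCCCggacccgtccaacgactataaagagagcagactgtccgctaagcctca
Mt2A: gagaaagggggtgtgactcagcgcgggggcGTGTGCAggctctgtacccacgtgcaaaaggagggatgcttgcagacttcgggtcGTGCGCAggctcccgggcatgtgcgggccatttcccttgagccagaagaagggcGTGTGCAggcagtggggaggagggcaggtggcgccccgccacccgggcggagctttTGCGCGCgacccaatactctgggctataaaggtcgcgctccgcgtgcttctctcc
Mt3: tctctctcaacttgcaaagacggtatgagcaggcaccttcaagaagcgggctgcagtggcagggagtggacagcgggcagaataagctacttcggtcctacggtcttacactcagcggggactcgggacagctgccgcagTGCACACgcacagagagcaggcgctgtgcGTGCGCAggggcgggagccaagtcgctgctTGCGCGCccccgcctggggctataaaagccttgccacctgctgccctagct
The Mt1 window held 6 matches, that of Mt2A 4 and that of Mt3 3. Of 33469 rat promoters of the same length, 20.6% held at least 1 match, 1.17% at least 3, 0.266% at least 4 and 0.0269% at least 6. None of the promoters found for the other 8 listed genes held these letters, and the table had no entry for Hmox1. The antioxidant response letters TGACNNNGC, also searched on both strands, were found in the windows of Mt1, Mt2A and Sod2 and at 1 of the Txnrd1 starts, against 10.1% of all promoters, and not in the Nqo1 window. A match of letters is a description of these windows and not a shown binding site.

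The amount of follicular tissue on the arrays was read from Iyd, the iodotyrosine deiodinase of follicular cells. Its level fell into 2 separate ranges, at or under -3.28 on 18 arrays and at or above -0.26 on the other 18, with no array in the 3.02 log2 units between. Iyd lay well above background on 18 of 18 arrays above the gap and on 4 of 18 below it. The mean level of a list of follicular genes ran from 0.98 to 2.51 above the gap (median 2.0) and from -5.34 to -0.96 below it (median -3.91), and 13 of its 14 genes against 6 of 14 lay well above background on all arrays of the respective range. The C cell and parathyroid lists had medians of 1.17 and 2.07 above and -5.59 and -6.74 below. The fast muscle list was high on both sides (medians 6.34 and 7.04), and the squamous epithelium list, of which 6 of 9 genes had a probe, ran from -6.05 to 2.41 above and from -5.32 to 5.95 below. Labelled thyroids with Iyd below the gap were present in all 9 groups, between 1 and 3 of the 4 rats each, and each of the 5 slides held arrays of both kinds. In whole tissue, fewer follicular cells and less RNA per cell cannot be told apart.

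The relation of the 10 genes to the follicular signal was measured first, because it sets how the activity groups can be compared. Mt1 was far higher and Gpx1 far lower where the follicular signal was present, Gpx4 was slightly lower, and the remaining genes did not pass the test. The slope of each probe on Iyd was fitted with limma across all 36 arrays beside 1 mean per group, so that it compares rats within groups, with Benjamini-Hochberg adjustment over all probes. With a threshold of 0.01 on the adjusted p, 1 of the 12 probes had a positive slope (Mt1) against 18.3% of all probes, and 3 had a negative one (Gpx1 and both Gpx4 probes) against 23.5%. The negative share is near that of all probes and the positive one lies below it, so the count itself is no result about the list.

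Mt1 ran from 3.02 through a median of 3.79 to 4.96 on the 18 arrays above the Iyd gap. On the 18 below it ran from -1.05 through 1.29 to 2.09. Every array above the gap thus lay over every array below it, with means of 3.81 ± 0.53 and 1.10 ± 0.73 (SD, n = 18 each), a 6.56-fold difference. Such complete separation was seen for 4.08% of the probes measured on all arrays. The slope was 0.34 ± 0.03 log2 units per log2 unit of Iyd (SE, limma adjusted p = 1.72e-11), and 1.84% of all probes had a slope at least that large. Within single slides it lay between 0.23 and 0.40, and it was 0.37 and 0.31 on the 2 scan days.

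The other metallothioneins followed. Mt2A, the isoform of most tissues beside Mt1, had means of 3.29 ± 0.53 above and 0.99 ± 1.12 below the gap. Mt3, best known from brain, had 4.57 ± 0.46 above and -0.49 ± 0.92 below. Their slopes were 0.29 and 0.65, both past the threshold. The lowest Mt3 level above the gap, 3.52, was higher than the highest below it, 1.53, while for Mt2A the lowest above (2.39) and the highest below (2.40) met.

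Gpx1 went the other way. Its levels ran from 3.13 through 3.71 to 4.64 above the gap and from 4.24 through 5.14 to 5.76 below it. Of the 18 arrays above the gap, 17 lay under all arrays below it, and the means of 3.70 ± 0.38 and 5.11 ± 0.43 differed 2.66-fold. The slope was -0.18 ± 0.02 (adjusted p = 7.52e-09), and 7.14% of all probes had a slope as low or lower. It lay between -0.25 and -0.13 within slides, and was -0.14 and -0.21 within the scan days, past the threshold in both. With quantile scaling between arrays it was -0.11 (adjusted p = 1.52e-05).

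**Figure D1:**
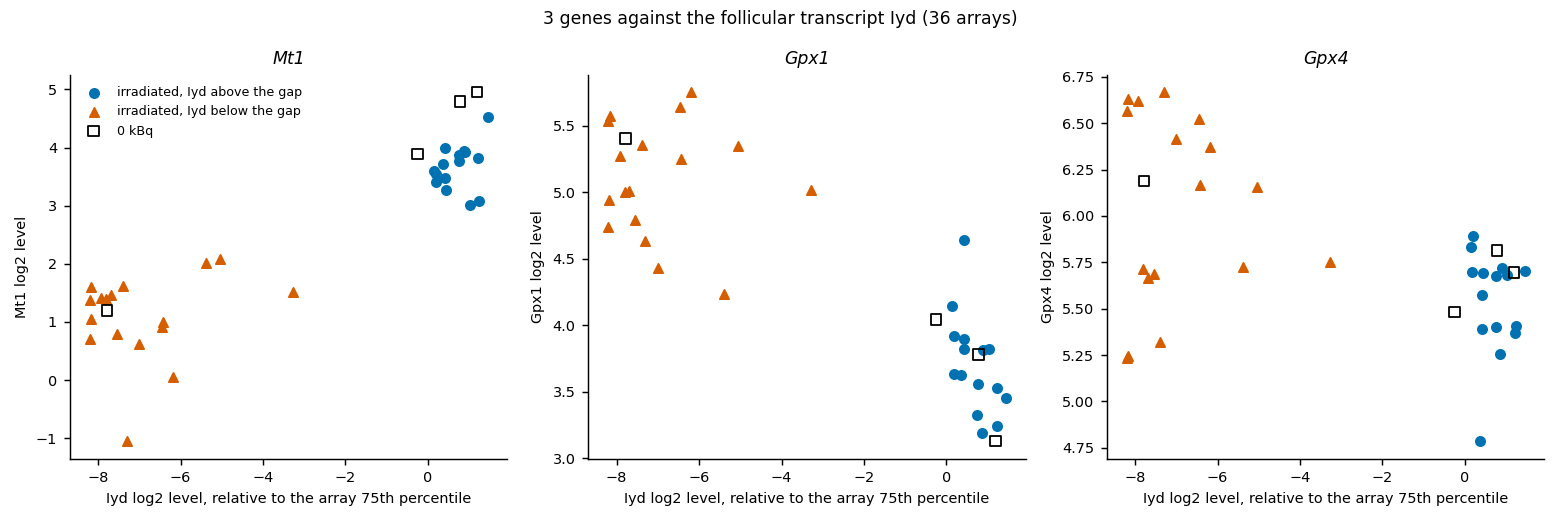
Levels of Mt1, Gpx1 and Gpx4 (y axes, log2 signal minus the array's 75th percentile) against the level of Iyd (x axis, same scale) on the 36 arrays, 1 point per rat. Mt1 at 3.02 or more is found only on the 18 arrays above the Iyd gap, Gpx1 is lower there, and the Gpx4 ranges overlap.

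Inside each range the slopes of Gpx1 and Mt1 were poorly determined. Among the 18 arrays above the gap, the slope of Gpx1 was -0.50 ± 0.16 (adjusted p = 0.0486) and that of Mt1 0.33 ± 0.26 (adjusted p = 0.489). Below the gap, where Iyd itself was mostly not well above background, they were -0.03 and 0.11. For Gpx1 and Mt1 the relation over all arrays therefore rests on the contrast between the 2 ranges. Another listed probe passed the threshold above the gap, and none did below it.

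Gpx4, the lipid peroxide reductase, had means of 5.56 ± 0.26 above and 6.04 ± 0.50 below the gap, with a slope of -0.06 ± 0.02 (adjusted p = 0.0054). Its second probe had -0.07 ± 0.02 (adjusted p = 0.0014), and both probes correlated over the 36 arrays with r = 0.97. The direction depended on the scaling: with quantile scaling the Gpx4 slope was 0.02 (adjusted p = 0.289). The slope of all probes had a median of -0.02. The mitochondrial dismutase Sod2 averaged 1.97 ± 0.29 above and 2.45 ± 0.55 below, with a slope of -0.06 (adjusted p = 0.0143), which missed the threshold. When the mean levels of slow muscle, fast muscle, adipose and squamous lists were fitted beside Iyd, the slopes became -0.11 for both Sod2 (adjusted p = 7.85e-05) and Gpx4 (adjusted p = 2.23e-05), while Mt1 and Gpx1 kept 0.34 and -0.18.

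For the other genes the arrays above and below the gap overlapped widely. Sod1 averaged 5.10 ± 0.19 above and 5.01 ± 0.35 below, and catalase 0.21 ± 0.37 and -0.02 ± 0.31. Secreted Gpx3 averaged -0.56 ± 0.49 and -0.18 ± 0.43 (slope -0.05, adjusted p = 0.0444). Txnrd1 averaged -1.29 ± 0.36 and -1.76 ± 0.36 (slope 0.05, adjusted p = 0.0131), but its second probe had a slope of 0.01 (adjusted p = 0.534) and correlated with the lead probe only with r = 0.40. Nqo1 averaged -0.37 ± 0.84 and -0.63 ± 1.52, and Hmox1 -1.64 ± 0.64 and -1.11 ± 1.24, with slopes of 0.03 and -0.08 ± 0.05 (adjusted p = 0.714 and 0.140). Under quantile scaling Sod1 had a slope of 0.08 (adjusted p = 3.39e-07) that passed, against 0.01 (adjusted p = 0.554) here.

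**Figure D2:**
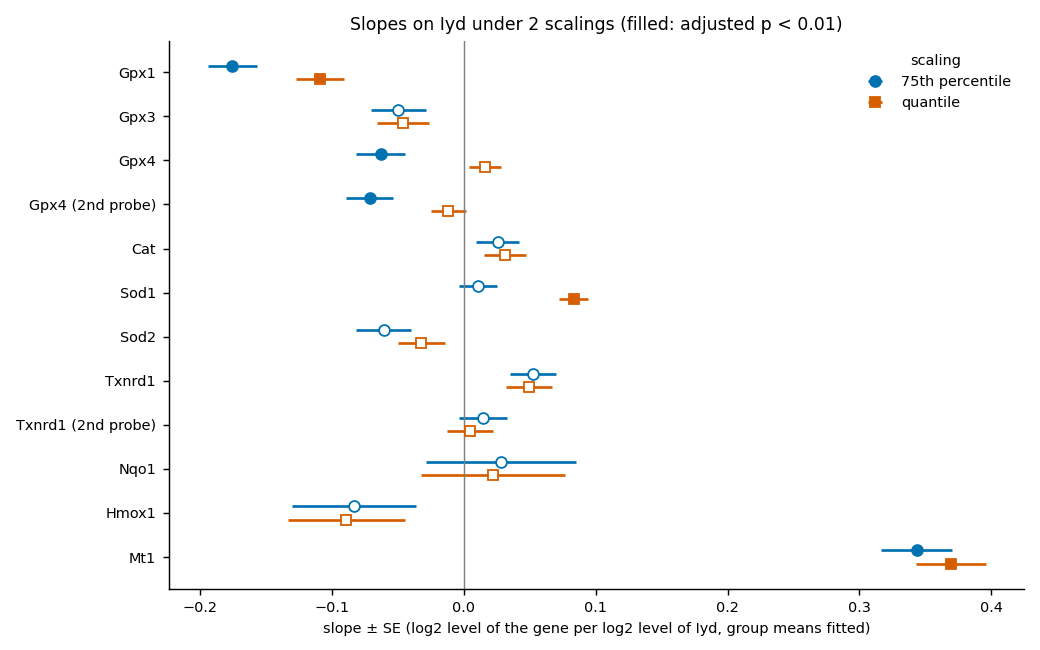
Slope of each of the 12 probes on the Iyd level (x axis, log2 units per log2 unit of Iyd, with its SE) under scaling to the 75th percentile and under quantile scaling. Mt1 at 0.34 and Gpx1 at -0.18 lie far from 0, and the Gpx4 probe changes sign between the scalings.

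The next question was whether the genes changed with activity. No listed gene was regulated, meaning a limma adjusted p under 0.01 and at least 1.5-fold, in any of the 8 comparisons with the controls. The count was 0 of 96 comparisons of the 12 probes, beside 0% of all probe comparisons, and also 0 for the irradiated groups combined (0% of all probes). At an unadjusted p under 0.05 it was 1 of the 80 comparisons of the 10 brighter probes, against 3.9% of all. No count of regulated comparisons above 0 was found for these probes under any alternative run. The test for any difference among the 9 groups gave an adjusted p of 0.989 for these genes, with 0.0132% of all probes called. With the same cut-offs of fold change and adjusted p in other software, the paper reports regulated transcripts in every irradiated group. The limma fit thus differs from the paper, since it called no probe in any of the 8 comparisons. The cause of this difference was not tested.

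Mt1 spanned the widest range of group means. The controls were at 4.79, 3.89, 1.19 and 4.96, with the highest mean of all groups, 3.71 ± 1.74 (SD, n = 4). At 9 kBq the levels were 1.41, 3.72, 1.60 and 1.47, and at 88 kBq 2.01, 1.62, 3.08 and 3.86. The groups thus overlapped, and each held rats on both sides of the Iyd gap. At 170 kBq the levels were 3.60, 3.93, 0.05 and 1.38, at 260 kBq 3.82, 3.02, 2.09 and 0.91, and at 760 kBq 1.52, 1.40, 4.53 and 3.76. At 340 kBq, the group with the lowest mean (1.49 ± 1.28), the levels were 1.05, 0.71, 0.78 and 3.40. At 1300 kBq they were -1.05, 1.0, 3.28 and 3.48, and at 4700 kBq 3.55, 3.93, 0.62 and 3.99. In all 8 irradiated groups the mean was lower than in the controls, by between 0.68 and 2.22 log2 units. These 8 differences share the same 4 controls and are not separate observations. The difference at 340 kBq was -2.22 ± 1.06 (SE, unadjusted p = 0.0445, adjusted p = 0.348), where 0.438% of all probes were lower at that unadjusted threshold. Of the 4 rats at 340 kBq 1 lay above the Iyd gap, against 3 of the 4 controls. At 340 kBq the paper names Mt1 among the molecules behind its predicted inhibition of TSH and activation of TNF. In the limma fit Mt1 did not pass the adjusted threshold in that group.

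Gpx1 had its highest mean at 340 kBq, 4.96 ± 0.78, and its lowest at 4700 kBq, 3.77 ± 0.52, with controls at 4.09 ± 0.96. None of its differences reached an unadjusted p of 0.05. Catalase was highest at 4700 kBq (0.37 ± 0.24 against 0.00 ± 0.51 in controls) and Txnrd1 too (-1.13 ± 0.42 against -1.48 ± 0.39), both within the spread of the rats. Sod1 varied least, with group means between 4.85 and 5.20. The group means of Sod2 lay between 1.91 and 2.59, those of Gpx3 between -0.76 and 0.09 and those of Gpx4 between 5.53 and 6.19.

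Nqo1 was the only listed gene with a group whose 4 rats all lay beyond the 4 controls. At 760 kBq its levels were 0.47, 0.55, 0.78 and 0.01, over controls at -0.45, -1.89, -1.30 and -0.12. The difference was 1.39 ± 0.87 (limma unadjusted p = 0.119), and 1.38% of all probes lay above the controls in this way at 760 kBq. Over the 8 comparisons, 1 of 80 did not overlap, against 1.8% of all probe comparisons. Hmox1 had group means between -1.85 and -0.79 and an SD of up to 1.73 within a group.

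**Figure D3:**
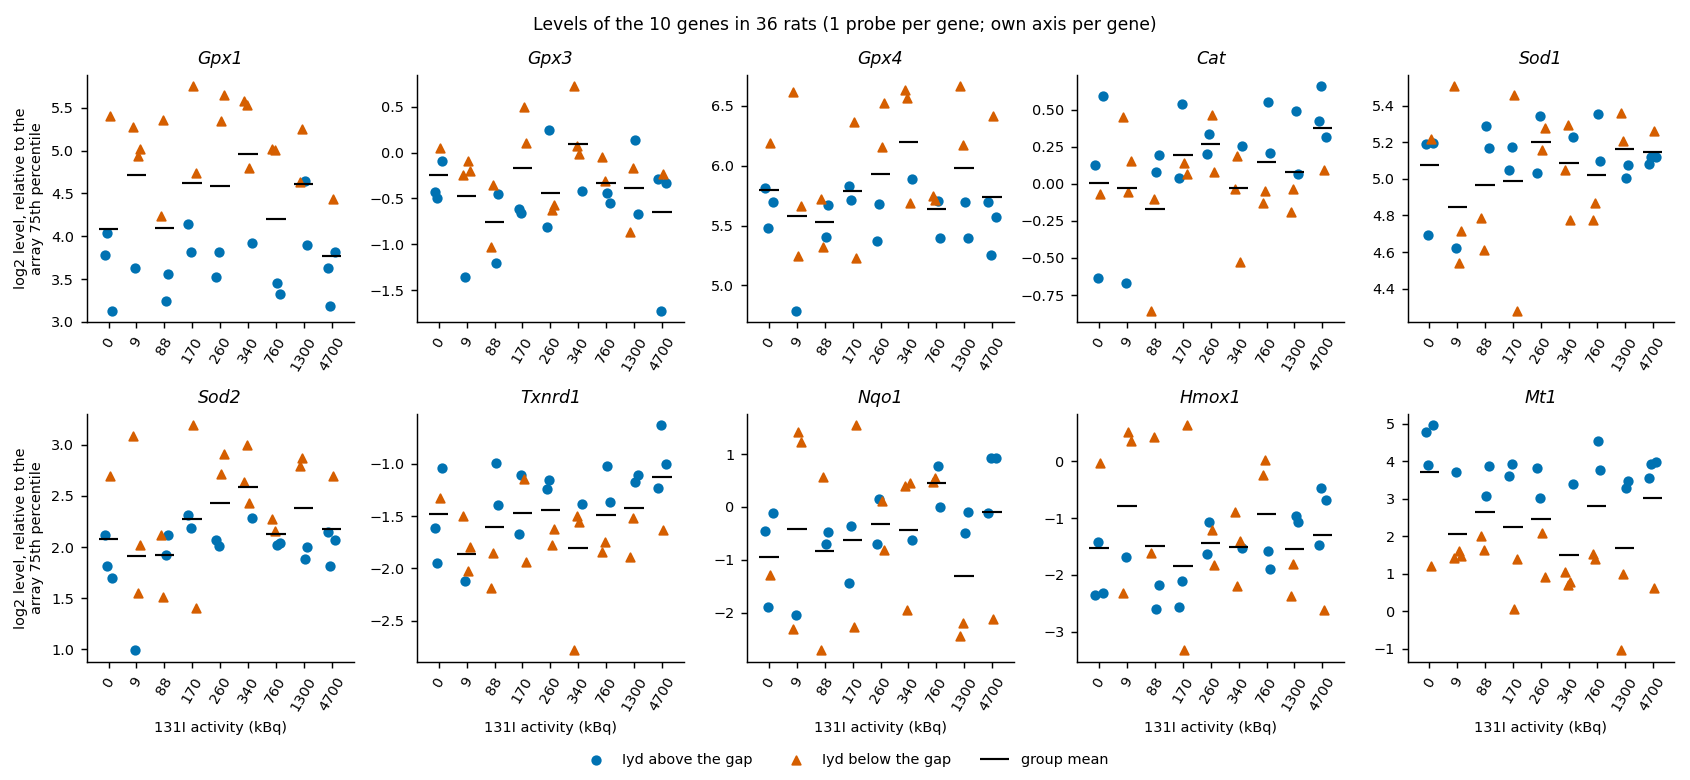
Levels of the 10 genes (y axes, log2 signal minus the array's 75th percentile) by injected activity (x axis, kBq), 1 point per rat, with a bar at the mean of each group (n = 4) and a separate axis for each gene. Circles are rats above and triangles rats below the Iyd gap, and for Mt1 and Gpx1 the spread within a group follows that mark.

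Over the 32 irradiated rats, the slope on log2 of the activity was fitted as a trend. Txnrd1, the thioredoxin reductase, gave 0.07 ± 0.03 log2 units per doubling of activity (unadjusted p = 0.0235, adjusted p = 0.387), and its second probe -0.0046. The other genes had unadjusted p of 0.0965 or more. No probe of the 12 passed the adjusted threshold, which 0.0132% of all probes did, while 10.9% of all probes were under an unadjusted p of 0.05.

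Because each group held rats from both Iyd ranges, the comparison was repeated on the 18 arrays above the Iyd gap, a subset chosen after the values were seen. It holds 3 controls and 15 irradiated rats, with 1 to 3 per group, and for the single rats at 9 and 340 kBq the spread is assumed to be that of the other groups. In the 9 kBq rat a list of lymphoid genes averaged 0.75, against a median of -5.89 above the gap. Its fast muscle list averaged 3.01, against a median of 6.34. Most regulated calls over all probes came from the single rat at 340 kBq. On its array 91.0% of probes lay well above background, beside a median of 72.5% over the series. In the groups with 2 or 3 rats, 0% to 0.0296% of all probes were regulated, and 3.97% to 9.73% were under an unadjusted p of 0.05. No listed gene was regulated in the 8 comparisons, against 1.54% of all probe comparisons, and 10 of 80 were under an unadjusted p of 0.05 against 9.59% of all. These 10 were 4 for Mt1 (lower), 2 each for Nqo1 and Hmox1 (higher), and Sod2 and Gpx4 in the single rat at 9 kBq (lower).

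Mt1 was lower than in the controls in all 8 groups on these arrays, by between 0.40 and 1.16 log2 units. These 8 differences share the same 3 controls and are not separate observations. The share of all probes with the same direction in all 8 groups was not counted. The 3 controls were at 4.79, 3.89 and 4.96, a mean of 4.54 ± 0.58, and the 15 irradiated rats ran from 3.02 to 4.53, a mean of 3.66 ± 0.39. Of the controls, 2 lay over all irradiated rats, and 4 irradiated rats lay over the lowest control. The mean of the parathyroid list (Pth, Gcm2 and Casr) differed between the same rats. It was -3.80 and -0.75 in the 2 controls with the highest Mt1 and 1.66 in the other, and between 0.41 and 3.95 in all irradiated rats but 1, at -3.19, which had the lowest Mt1 (3.02). Its part in the result was not tested. The irradiated groups combined differed by -0.90 ± 0.27 (SE, limma unadjusted p = 0.00672, adjusted p = 0.163), where 13.5% of all probes were under the unadjusted threshold. A two-sided exact permutation test over the 18 rats gave p = 0.0123. Mt2A gave -0.94 in the same test (exact p = 0.0098) and Mt3 0.09 (exact p = 0.735). These 3 tests were chosen after the values were seen, and the limma result did not pass the correction over all probes. Among the 15 irradiated rats the slope of Mt1 on activity was 0.03 ± 0.04 per doubling.

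On the arrays above the gap Nqo1, Hmox1, Txnrd1 and catalase had positive slopes on activity among the irradiated rats that did not pass the corrected threshold. Nqo1, the quinone reductase, was at -2.05 at 9 kBq, at -0.71 and -0.48 at 88 kBq, and at -1.44 and -0.36 at 170 kBq. It was at -0.70 and 0.14 at 260 kBq, -0.62 at 340 kBq, 0.78 and 0.01 at 760 kBq, -0.50 and -0.10 at 1300 kBq, and -0.11, 0.93 and 0.92 at 4700 kBq. The 3 controls, at -0.45, -1.89 and -0.12, lay inside this range. The trend was 0.26 ± 0.05 log2 units per doubling (limma unadjusted p = 0.000178, adjusted p = 0.0761), and it stayed between 0.23 and 0.29 when any single array or group was left out. The rat at 9 kBq (-2.05) and the lowest control (-1.89) had lymphoid list means of 0.75 and -0.02. The median of that list above the gap was -5.89. The part of the lymphoid signal in the Nqo1 levels was not tested.

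Hmox1, which breaks haem down to biliverdin, iron and carbon monoxide, was at -2.36, -1.41 and -2.32 in the 3 controls. It was at -0.96 and -1.07 at 1300 kBq and at -1.47, -0.46 and -0.67 at 4700 kBq, all but 1 of them over all 3 controls. The differences were 1.01 at 1300 kBq (unadjusted p = 0.0177) and 1.16 ± 0.33 at 4700 kBq (unadjusted p = 0.00431, adjusted p = 0.667). The trend was 0.17 ± 0.05 (unadjusted p = 0.00516, adjusted p = 0.215), and without the 4700 kBq rats its unadjusted p was 0.0929. Txnrd1 and catalase each had a trend of 0.09 ± 0.03 (adjusted p = 0.213 and 0.199), which rested on the single rat at 9 kBq: without it the unadjusted p was 0.109 and 0.119. The second Txnrd1 probe had 0.04 ± 0.04. The part of the lymphoid signal of the 9 kBq rat in these trends was not tested. In all, 4 of the 10 genes had a positive trend at an unadjusted p under 0.05, against 3.81% of all probes, and none passed the adjusted threshold, against 0.0461%. On the arrays below the gap the trends of Nqo1 and Hmox1 were both -0.18 (unadjusted p = 0.202 and 0.125), and the difference between the 2 sets of arrays was not tested.

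Ephx1, microsomal epoxide hydrolase and another detoxifying enzyme of the Nrf2 system, is no listed gene. It was the only one of 64 further redox genes whose trend passed on the arrays above the gap, and it was singled out after its values were seen. At a limma unadjusted p under 0.05, 14 of the 64 had a positive trend there and 3 a negative one. Of all probes, 3.81% had a positive trend at that threshold and 12% a trend in either direction. The 3 controls were at -0.09, -0.94 and -0.67. Levels were -0.74 at 9 kBq, 1.09 and 0.40 at 88 kBq, -0.10 and 0.84 at 170 kBq, 1.06 and 0.80 at 260 kBq, and 0.83 at 340 kBq. They were 3.20 and 2.65 at 760 kBq, 2.93 and 2.61 at 1300 kBq, and 3.26, 3.19 and 2.83 at 4700 kBq. All 7 rats at 760 kBq or more thus lay over all 11 other rats. This cut was also set after the values were seen, and the share of all probes split in the same way was not counted. The trend was 0.48 ± 0.06 per doubling (limma adjusted p = 0.00257). It was no longer past the threshold of 0.01 without the 4700 kBq rats (adjusted p = 0.169), without those at 88, 260 or 1300 kBq (0.0134, 0.0118 and 0.0180), without the single rat at 9 kBq (0.0115), and without rat 1 or rat 2 at 4700 kBq (0.0138 and 0.0137). Over all these settings the slope stayed between 0.46 and 0.55. Against the controls Ephx1 was higher by 3.49 at 760 kBq (adjusted p = 0.00812), 3.34 at 1300 kBq (adjusted p = 0.00776) and 3.66 ± 0.31 at 4700 kBq (adjusted p = 0.000636), where 0.0165%, 0.0132% and 0.0296% of all probes were regulated. Below the gap all 18 rats were between -2.64 and -1.08. Over all 36 arrays the difference at 4700 kBq was 2.76 (adjusted p = 1.0), so the call exists only on the subset.

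**Figure D4:**
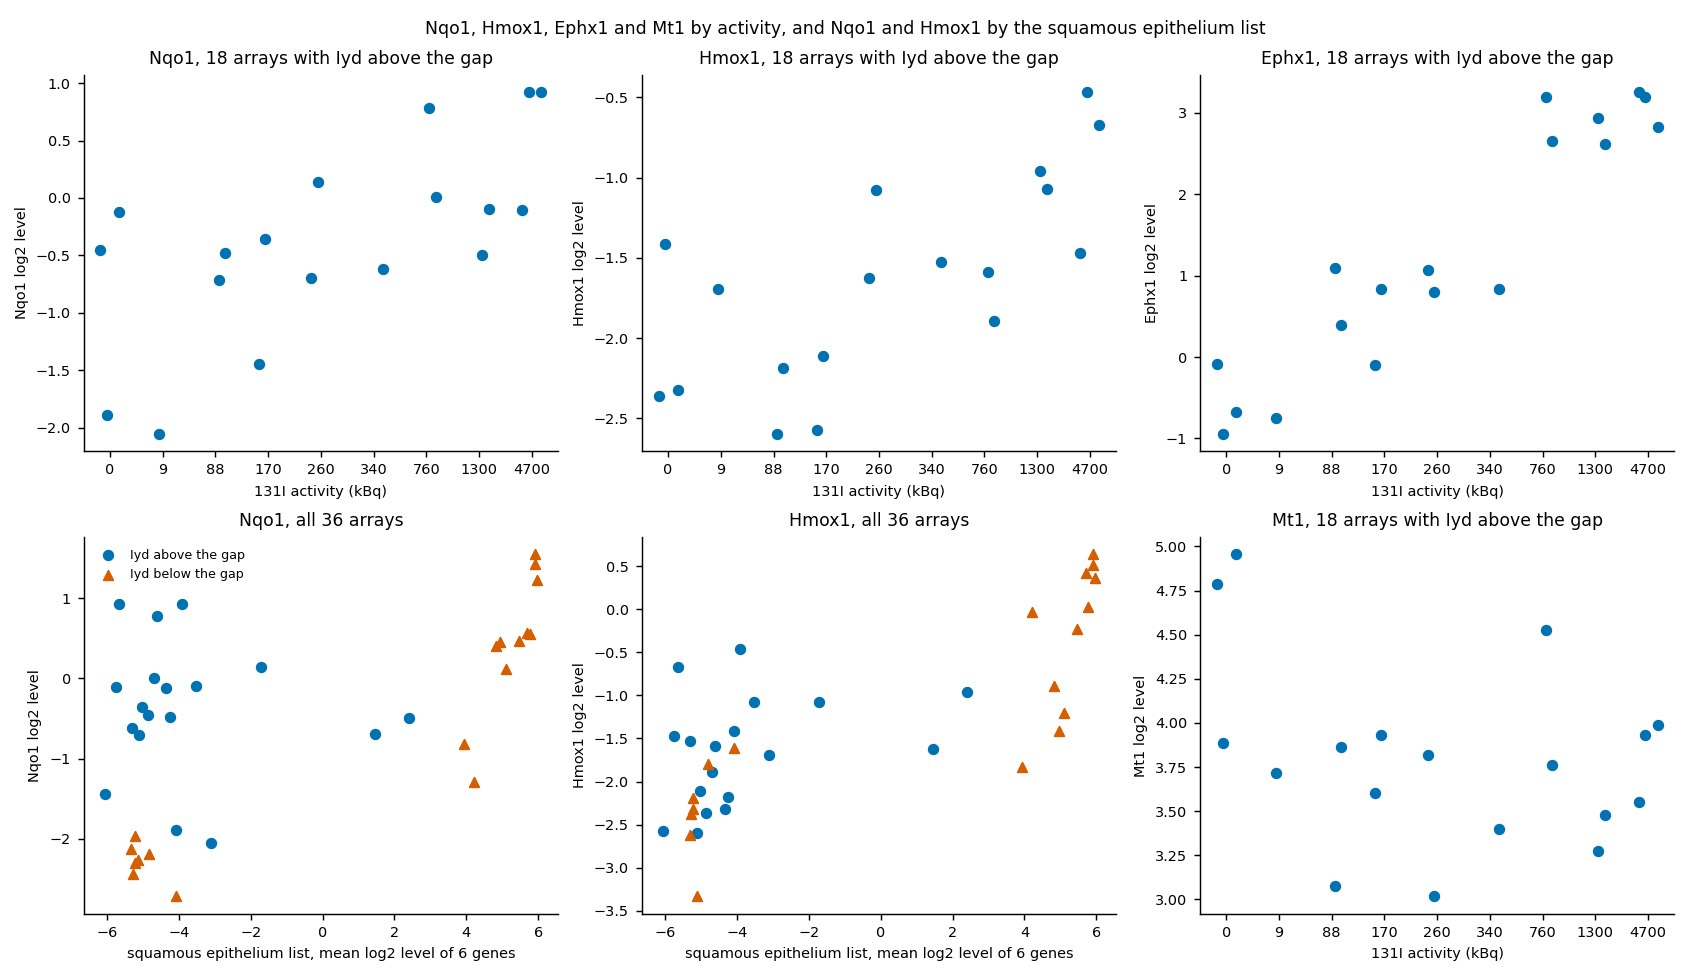
Levels of Nqo1, Hmox1, Ephx1 and Mt1 (y axes, log2 signal minus the array's 75th percentile) by injected activity (kBq, groups evenly spaced, controls at 0) on the 18 arrays above the Iyd gap, and levels of Nqo1 and Hmox1 against the mean of the squamous epithelium list on all 36 arrays. Ephx1 lies at 2.61 or more in all 7 rats at 760 kBq or above, and among the arrays below the gap (triangles) Nqo1 and Hmox1 are higher where the squamous list is high.

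Nqo1 and Hmox1 moved with another tissue signal. In a fit of group, Iyd and the mean levels of 4 tissue lists together, both rose with the squamous epithelium list, by 0.23 ± 0.05 for Nqo1 (adjusted p = 0.0018) and 0.17 ± 0.03 for Hmox1 (adjusted p = 0.0011) log2 units per log2 unit of the list. These were 2 of the 12 probes, against 6.13% of all probes with a positive slope. They passed with quantile scaling, median centring and the authors' own scale as well, with adjusted p between 0.0010 and 0.0057. None of the 12 probes passed for slow muscle, fast muscle or adipose tissue, against 0.0264%, 0.751% and 0.356% of all probes with a positive slope. On the arrays above the gap, the squamous list ran from -4.87 to -4.07 in the 3 controls, from -5.75 to -3.92 at 4700 kBq, from -3.52 to 2.41 at 1300 kBq and from -1.71 to 1.46 at 260 kBq. The part of the squamous signal in the trends of Nqo1 and Hmox1 on activity was not tested.

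Of 67 further genes in 8 redox lists, 64 had a probe. Their slope on Iyd was positive for 21, negative for 16 and not past the threshold for 27, beside 18.3% positive and 23.5% negative over all probes, or 28 positive and 14 negative with quantile scaling. The metallothioneins and extracellular scavengers were positive in 4 of 5 genes (median slope 0.14), led by Mt3 and Mt2A, and negative for Selenop, the selenium carrier of plasma (-0.09). The genes that make hydrogen peroxide were positive in 3 of 7 (median 0.15), led by Duox2 (0.49), the oxidase that supplies thyroid peroxidase, and its maturation factor Duoxa2 (0.55), and Nox4, another NADPH oxidase, had -0.14. The software called Duoxa2 well above background on 29 arrays of 36 and Nox4 on 16, so the Nox4 slope rests largely on dim signals.

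Most other lists held few called genes in each direction, and with 18.3% of all probes positive and 23.5% negative their counts are read as a description only. The glutathione peroxidases and peroxiredoxins had 3 positive and 3 negative of 9. Gpx8 and Prdx4, both of the endoplasmic reticulum, had slopes of 0.28 and 0.13, and the peroxiredoxins Prdx3 and Prdx5, found in mitochondria, -0.12 and -0.09. The thioredoxin and glutathione reduction list had 1 positive and 3 negative of 10, with Srxn1, which restores overoxidised peroxiredoxins, at 0.26, the glutaredoxin Glrx at -0.37 and mitochondrial Txn2 at -0.13. Of the Nrf2 list 3 were positive and 4 negative of 12. Ephx1 (0.40) and the glutathione transferase Gsta3 (0.36) led the positive side, and the aldehyde dehydrogenase Aldh3a1 (-0.50) and Gstm1 (-0.19) the negative side.

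Haem breakdown and iron storage had 3 positive of 6, with ferroportin (Slc40a1) at 0.07 and ferritin light chain (Ftl1) at 0.05. Of the 7 genes measured for glutathione synthesis and NADPH supply, glutathione synthetase (Gss) was positive at 0.12, and the negative one, Gclm, lay well above background on no array. The selenoprotein list had 3 positive and 3 negative of 8, with Selenof (0.13) and Selenos (0.11) of the endoplasmic reticulum on one side and Selenow (-0.24) and the elongation factor Eefsec (-0.04) on the other. The 8 redox lists had medians between -0.01 and 0.15, beside -0.02 for all probes. A list of 7 steroid and stress responsive genes, kept for comparison because metallothioneins also respond to glucocorticoids, had 0 positive and 4 negative slopes, beside 18.3% and 23.5% of all probes, and a median of -0.10. None of the 512 group differences of the 64 redox genes was regulated by limma, as of all probes (0%), and 3 were under an unadjusted p of 0.05, against 3.9% of all probe comparisons.

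**Figure D5:**
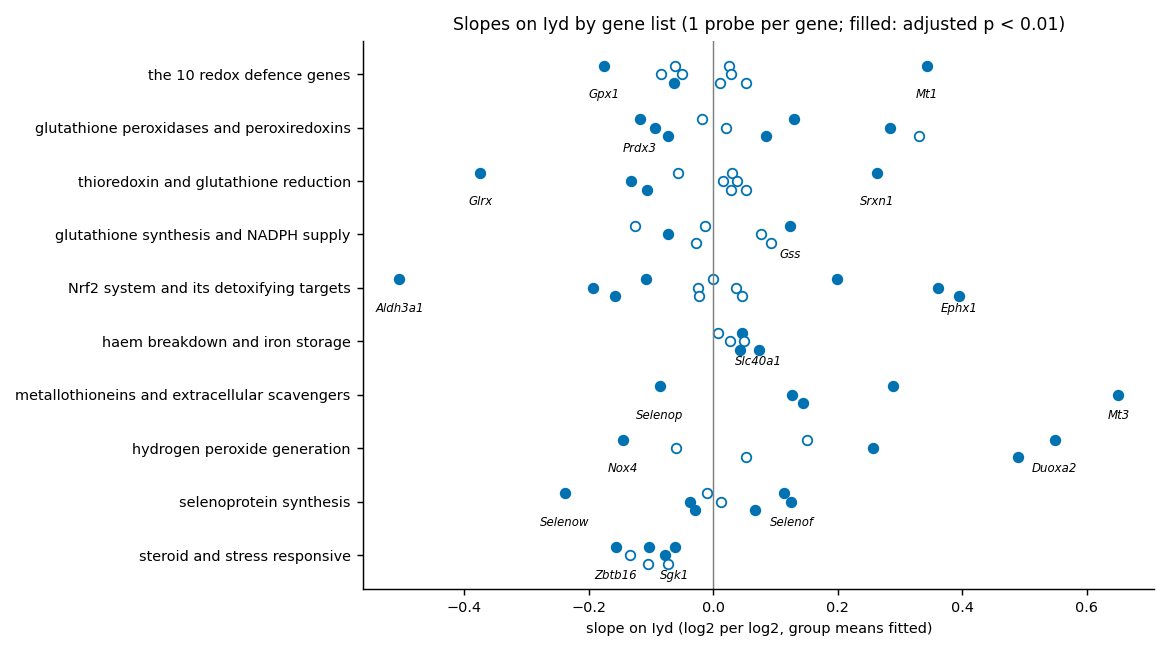
Slopes on the Iyd level (x axis, log2 units per log2 unit of Iyd) of the 10 genes, of the 64 further redox genes and of 7 steroid and stress responsive genes, by list, 1 point per gene, filled where the adjusted p was under 0.01. Mt3 (0.65), Duoxa2 (0.55) and Duox2 (0.49) lie farthest to the right and Aldh3a1 (-0.50) farthest to the left.

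The genes most like each of the 10 were sought among 13962 probes that lay well above background on at least 18 arrays, by Pearson's r over the 36 arrays, as a description that includes the common follicular split. Mt1 was most like Stx1a, Prr15 and Psat1 (r = 0.95 each, and 0.71, 0.71 and 0.69 with the mean of each Iyd range removed). Mt3 had r = 0.94 and 0.54 with Mt1, and Mt2A 0.92 and 0.76. Gpx1 was most like Bicd2 (0.96), Zfp521 and Mcu, the mitochondrial calcium channel (0.95 each).

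Gpx4 was most like genes of the respiratory chain or its assembly, Cox17 (0.97) and Ndufb4 (0.95), with Chchd2l3 (0.96) between. Sod2 was most like Mipep, a mitochondrial peptidase (0.96), Kiaa1191 (0.96) and again Ndufb4 (0.95). Nqo1 was most like the ephrin receptor Epha2 (0.94), the actin-binding protein Cttn (0.93) and thioredoxin, Txn1 (0.92), and Hmox1 like Ctnnbip1, Tac4 (0.87 each) and Plcxd2 (0.86). Sod1 was most like Pccb (0.92), Sqstm1 and Cars2 (0.91 each), and Gpx3 like Serpinf1 (0.87), Cadm3 (0.85) and Rnase4 (0.84). Txnrd1 was most like Nicn1, Nacc2 (0.87 each) and Vps29 (0.86), and catalase, with the lowest values of the 10 genes, like Clu (0.85), Lzts2 (0.80) and Psen2 (0.79).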

How the data were processed

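Thyroid RNA of 36 rats was measured on 1 Agilent array each. The authors deposited the scanner output of Agilent Feature Extraction 10.7.3.1, whose processed signal is an intensity with background and spatial trend removed and no normalization between arrays, and a matrix of intensities that they normalized between arrays. Here control spots and outlier-marked spots (331 to 1365 per array) were left out, each array's 75th percentile (1564 to 4288) was subtracted from the log2 signal, and spots of a probe were averaged. Per array, 62.6% to 91.0% of the probes were called well above background, and precision is limited by how many arrays there are. Of 30367 probes, 17998 had 1 gene symbol through their accession, 12369 had none and 99 lacked a value on some array. The nearest 2 arrays were not duplicates.

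Group means, differences from the controls, trends and slopes on Iyd were fitted with limma 3.58.1 in R 4.3.3 to all probes, with p-values adjusted by the Benjamini-Hochberg method over all probes within each comparison. A probe was called regulated with at least 1.5-fold change and an adjusted p below 0.01, the thresholds of the study's methods, which used other software. Data were handled with the R package data.table in version 1.17.8, pandas 2.3.3 and numpy 2.4.6, and drawings with matplotlib 3.10.9, in Python 3.11.15. The fits were tested on simulated data. All 10 genes are named. Of each further list, up to 2 genes per direction with the largest called slope are named, and per gene the 3 most alike probes. The genes and lists were chosen with earlier results of these data known. Alternatives were other scalings (quantile, median centring, the authors' matrix), a normexp correction with an offset of 50 run on median signals, slide and rat number as blocks, array weights, tissue lists as covariates, other thresholds and leaving out rats. Subsets by Iyd were added after the values were seen.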

Additional observations from a re-analysis of the deposited data

Results flagged for a closer look

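Of 108 sets of 4 rats (12 probes in 9 groups), 8 held a rat that stood apart from the other 3 by Dixon's test, where chance gives about 1 in 20. Mt1 accounted for 3 of them. At 9 kBq rat 2 was at 3.72 against 1.41 to 1.60 in the others, and at 340 kBq rat 4 was at 3.40 against 0.71 to 1.05, and each was the only rat of its group above the Iyd gap. At 4700 kBq rat 3 was at 0.62 against 3.55 to 3.99, and it was the only rat of its group below the gap. Gpx3 was low in 2 rats, rat 2 at 9 kBq with -1.36 (others -0.25 to -0.09) and rat 2 at 4700 kBq with -1.72 (others -0.33 to -0.23). Txnrd1 was at -2.79 in rat 1 at 340 kBq (others -1.56 to -1.39). Gpx4 was at 5.40 in rat 4 at 760 kBq (others 5.70 to 5.75), and Sod1 at 4.69 in control rat 2 (others 5.19 to 5.22).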

How the results depend on the processing

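No listed probe was regulated, for any group or for the irradiated groups together, and none had a trend past the threshold over the 32 rats, under any alternative run. The slopes of Mt1 and Gpx1 on Iyd kept direction and call under every scaling and without any single rat (0.33 to 0.36 and -0.19 to -0.17). The count of called Iyd slopes, 4 of 12, was 1 above the gap, 0 below it, 2 on either scan day and 7 at an adjusted p under 0.05, and lay between 3 and 5 without single rats. The count of differences at an unadjusted p under 0.05, 1 of 80, became 0 with slides as a block and below the gap, 2 in fits of only the compared groups and with Iyd as a covariate, 5 with Iyd and 4 tissue lists, 10 above the gap and 12 with array weights, and 0 to 5 without single rats (5 without control rat 3). Non-overlapping comparisons numbered 2 with median centring. Slopes that changed sign were those of Gpx4 (0.016 with quantile scaling and in the authors' matrix, 0.11 between 2 clusters of that matrix), Cat (-0.036 below the gap, -0.0018 with 4 lists), Sod1 (-0.035 with 4 lists), Sod2 (0.0038 above and 0.062 below the gap), Hmox1 (0.056 with 4 lists) and Nqo1 (-0.18 below the gap, -0.0037 without 1300 kBq, -0.0052 without 4700 kBq, and -0.0045 to 0.064 without single rats). Without single rats, the Mt1 difference lay between -3.06 and -1.80 at 340 kBq, and between -2.25 and -0.99 for the irradiated groups combined. At 340 kBq it was -3.33 with array weights, -0.70 with Iyd as a covariate, -1.14 above the gap and -0.35 below it. For the combined groups it was -0.77 with Iyd, -0.61 with Iyd and 4 lists and -0.14 below the gap. With Iyd as a covariate the largest Mt1 difference was at 1300 kBq, -1.44 (limma unadjusted p = 0.0016, adjusted p = 0.865). That group also had the largest difference with Iyd and 4 lists, -1.09. Rat numbers only name the rats: 57 of 144 pairs of the same number deviated from their group means with r over 0.1. The median r was -0.027 for pairs of the same number and -0.030 for pairs of different numbers. A replicate block gave slopes of 0.34 for Mt1, -0.17 for Gpx1 and -0.06 for Gpx4, with Txnrd1 (0.05) then called. The causes were not tested. Signal over background limits the Iyd slope below the gap, where Iyd lay well above background on 4 of 18 arrays.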

Other observations

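Mean levels over all 10 genes hid these opposite movements, with a median of 1.70 on the arrays above the Iyd gap and 1.68 below it. Of the further lists, the glutathione peroxidases and peroxiredoxins had medians of 2.34 above and 1.99 below, and haem breakdown and iron storage 2.56 and 2.24. Below the gap the squamous epithelium list itself split the rats. The 3 rats at 9 kBq had list means of -5.23, 5.92 and 5.95, with Nqo1 at -2.30, 1.42 and 1.23 and Hmox1 at -2.32, 0.51 and 0.36 in the same order.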
